A study of Mus musculus with 3 samples.

Results

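Transforming growth factor beta (TGF-beta) genes and their feedback genes were followed in NIH3T3 cells, an immortalised line of mouse embryonic fibroblasts, after knockdown of retinol saturase. The set comprised the ligands Tgfb1, Tgfb2 and Tgfb3, the receptors Tgfbr1 and Tgfbr2, the inhibitory SMADs Smad6 and Smad7, and the inhibitors of DNA binding Id1, Id2 and Id3. All probe sets that the platform annotation assigns to exactly 1 of these symbols were taken, which gave 21 probe sets for 10 genes, out of 34945 probe sets for 18193 genes. The series belongs to a screen for short hairpin RNAs (shRNAs) that raise resistance to oxidative stress. Its groups here were 1 array of cells with an shRNA against retinol saturase (RetSat shRNA) and 2 arrays of cells with the empty vector (empty vector 1 and empty vector 2). The RetSat shRNA cells are labelled as highly resistant to t-BHP (tert-butyl hydroperoxide, an organic peroxide), and no treatment is stated for them. The empty-vector cells are labelled as grown in calf serum without treatment. The labels do not say whether the RetSat shRNA line was 1 clone or a pool of cells.

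TGF-beta ligands are secreted in a latent form and bind a type II receptor, which recruits and phosphorylates a type I receptor. The active receptor complex phosphorylates SMAD2 and SMAD3, which enter the nucleus with SMAD4 and change transcription. Bone morphogenetic proteins (BMPs) of the same family act through SMAD1, SMAD5 and SMAD9, and the Id genes are among their best-known direct targets. SMAD6 and SMAD7 are induced by these pathways and damp them. ID proteins bind basic helix-loop-helix (bHLH) factors of the E protein group and keep them off DNA, and they are high in proliferating fibroblasts.

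RefSeq promoters (build GRCm38.p6) were at hand for 7 of the 10 genes, Tgfb1, Tgfb2, Tgfbr1, Tgfbr2, Smad6, Id2 and Id3. The 250 bases before the annotated start of 5 of them are shown, with at least 1 gene of each role but the inhibitory SMADs. They were taken because, by the brightest probe set, Tgfb1, Tgfbr2, Id2 and Id3 had the same order of the 3 arrays and Tgfbr1 had another. Capitals mark matches, on either strand, to GTCT (the core bound by SMAD3 and SMAD4), to GGCGCC (a GC-rich motif bound by BMP-regulated SMADs) and to CANNTG (the E box bound by bHLH factors). Tgfbr1 had 2 annotated starts, and the upstream one is shown.
Tgfb1, chr7:25686752-25687001, plus strand: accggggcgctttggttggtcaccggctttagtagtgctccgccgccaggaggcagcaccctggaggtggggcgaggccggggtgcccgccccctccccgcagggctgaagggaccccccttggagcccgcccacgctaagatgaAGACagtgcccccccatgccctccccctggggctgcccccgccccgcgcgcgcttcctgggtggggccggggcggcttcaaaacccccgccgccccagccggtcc
Tgfbr1, chr4:47352972-47353221, plus strand: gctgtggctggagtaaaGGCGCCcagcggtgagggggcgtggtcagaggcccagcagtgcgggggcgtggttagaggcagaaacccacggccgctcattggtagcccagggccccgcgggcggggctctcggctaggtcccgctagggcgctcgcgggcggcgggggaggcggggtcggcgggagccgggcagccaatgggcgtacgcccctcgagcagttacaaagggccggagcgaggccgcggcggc
Tgfbr2, chr9:116175364-116175613, minus strand: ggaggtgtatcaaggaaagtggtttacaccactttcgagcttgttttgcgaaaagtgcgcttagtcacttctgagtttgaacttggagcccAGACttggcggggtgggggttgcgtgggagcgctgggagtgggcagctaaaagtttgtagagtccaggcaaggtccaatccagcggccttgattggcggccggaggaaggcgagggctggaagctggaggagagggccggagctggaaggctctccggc
Id2, chr12:25096093-25096342, minus strand: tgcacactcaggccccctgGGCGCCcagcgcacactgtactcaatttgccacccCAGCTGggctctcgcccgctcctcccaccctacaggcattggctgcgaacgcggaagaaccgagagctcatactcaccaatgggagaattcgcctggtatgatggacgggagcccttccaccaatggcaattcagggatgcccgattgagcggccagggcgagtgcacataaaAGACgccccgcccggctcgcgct
Id3, chr4:136143572-136143821, plus strand: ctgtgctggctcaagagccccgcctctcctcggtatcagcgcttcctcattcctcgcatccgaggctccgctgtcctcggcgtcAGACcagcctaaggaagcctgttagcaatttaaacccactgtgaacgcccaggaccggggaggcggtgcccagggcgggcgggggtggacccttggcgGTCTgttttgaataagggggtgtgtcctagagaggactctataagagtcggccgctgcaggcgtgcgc
GTCT was found at 1 place each in Tgfb1, Tgfbr2 and Id2, at 2 places in Id3, and at 0 places in the window of Tgfbr1 shown, but at 2 places in that of its other start. Of the genes whose windows are not shown, Tgfb2 held 3 and Smad6 1. Both had the same order of the arrays as Tgfb1 by the brightest probe set. GGCGCC was found at 1 place in Id2 and at 1 place in Tgfbr1, and CANNTG at 1 place in Id2, as in Tgfb2 and at the other start of Tgfbr1. No match to GTCT overlapped one to CANNTG in these windows. Of 32851 promoters of the same length, 82.9% held GTCT, 9.59% held GGCGCC and 66.2% held CANNTG, so that GTCT and CANNTG matches are common in any window of this size. The windows shown had 75.2% G and C for Tgfb1, 74.8% for Tgfbr1, 62.8% for Id2 and for Id3, and 58.4% for Tgfbr2. The median over all promoters was 52.4%. These matches are descriptions of the letters and no binding was measured.

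The 3 arrays were scaled to a common level in the deposited values (2% trimmed mean 250 on each). The number of arrays limits the precision. The array that stood apart was empty vector 1. Over the 19518 single-gene probe sets bright enough to test, log2 signals correlated at 0.981 between RetSat shRNA and empty vector 2, at 0.913 between RetSat shRNA and empty vector 1, and at 0.914 between the empty-vector arrays (across probe sets, which are not independent replicates). The close pair are the 2 arrays whose titles carry the number 2, and the labels do not say what that number stands for on RetSat shRNA. The log2 difference of RetSat shRNA at the median of all tested genes was 0.14 from empty vector 1 and 0.00 from empty vector 2. The Actb control probe sets gave a 3' over 5' signal of 1.65 on RetSat shRNA and 1.53 on each empty-vector array. Those of Gapdh gave 0.931 on RetSat shRNA, 0.841 on empty vector 1 and 0.931 on empty vector 2. Retsat itself, the target of the shRNA, read 69.5 on RetSat shRNA, against 415.9 and 495.9 with the empty vector, which leaves 15.2% of the empty-vector mean, yet its adjusted p in limma was 0.9999 (unadjusted p = 0.00152). All 9 fibroblast markers (Col1a1, Col1a2, Vim and others) were bright enough to test, with a summed signal of 72340 on RetSat shRNA, against 72980 and 71620. The sum is carried by the brightest probe sets, and single markers differed, such as Pdgfra, a growth factor receptor, at 1886.7 on RetSat shRNA, against 4732.8 and 2172.5, and Pdgfrb at 2455.4, against 1287 and 2548. Of the markers of other cell types on the arrays, 3 of 6 epithelial, 1 of 4 blood, 0 of 4 endothelial, 0 of 4 muscle and 1 of 3 adipocyte genes were bright enough. The adipocyte one was Fabp4, a fatty acid carrier, at 440.4 on RetSat shRNA, against 487.2 and 333.6. In an extract of many cells, fewer cells with a transcript and less transcript per cell cannot be told apart.

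No member probe set bright enough to test passed the tests used here. In limma, over all 19518 probe sets, 0 of the 15 tested member probe sets passed at an adjusted p of 0.05 and 0 had an unadjusted p under 0.05. Over all tested probe sets the count was 0 (0%), with 201 (1.03%) at an unadjusted p under 0.05, and its spread came only from the 2 empty-vector arrays. A rule of size, which asks for a 2-fold or greater distance from empty vector 1 and from empty vector 2 in 1 direction, took 0 of the 15 either way. Here and below the rule is applied on the log2 scale after an offset of 10.2 is added to each signal, which shrinks the folds of dim probe sets. Without the filter the rule took 0 of the 21 member probe sets as higher (780 of all 34945) and 1 as lower (950 of all 34945). That 1 was a dim Tgfbr2 probe set, at 0.4 on RetSat shRNA, against 26.5 and 14.8. RetSat shRNA was above both empty-vector arrays on 2 of the 15 tested ones, against 30.8% of all tested probe sets, and below both on 2, against 29.2%. Over all tested probe sets the rule took 29 higher (0.149%) and 182 lower (0.932%), a split that was 56 and 129 after median centring and 63 and 137 after quantile normalization. The intervals, which use a spread that limma moderates over all tested probe sets, are wide. For Id1 the 95% interval of the log2 difference from the empty-vector mean was -1.26 to 1.11 and for Smad7 it was -1.02 to 1.72, so a 2-fold change in either gene would lie inside it.

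By their brightest probe sets, most members shared an order of the 3 arrays. With each gene taken by its brightest probe set, RetSat shRNA lay between the 2 empty-vector arrays for 9 of the 10 genes, against 40.2% of all 10843 tested genes. For 8 of the 10, all but Id1 and Tgfbr1, empty vector 1 was lowest and empty vector 2 highest, against 24.6% of all tested genes. Over all 15 tested member probe sets the count with this order was also 8, against 22% of all tested probe sets. The further tested probe sets of these genes thus did not share it. For Tgfbr2, Tgfb2, Id3, Tgfb3 and Smad7, RetSat shRNA was only 0.01 to 0.10 log2 below empty vector 2. RetSat shRNA was above both empty-vector arrays for 0 of the 10 genes (34.4% of all tested genes) and below both for 1, Tgfbr1 (25.4%). The median log2 difference of the 10 genes was 0.30 from empty vector 1, against 0.14 over all tested genes, and -0.07 from empty vector 2, against 0.00. Relative to empty vector 2 alone, 9 of the 10 genes lay within 0.3 log2, as did 75.3% of all tested genes. These counts depend on the scaling. Median centring of the arrays adds 0.16 to a log2 difference from empty vector 1 and 0.06 to one from empty vector 2, and Tgfb2 and Tgfbr2 then came to lie above both empty-vector arrays and Tgfbr1 between them (2 above and 0 below, against 45.8% and 17.8% of tested genes).

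**Figure D1:**
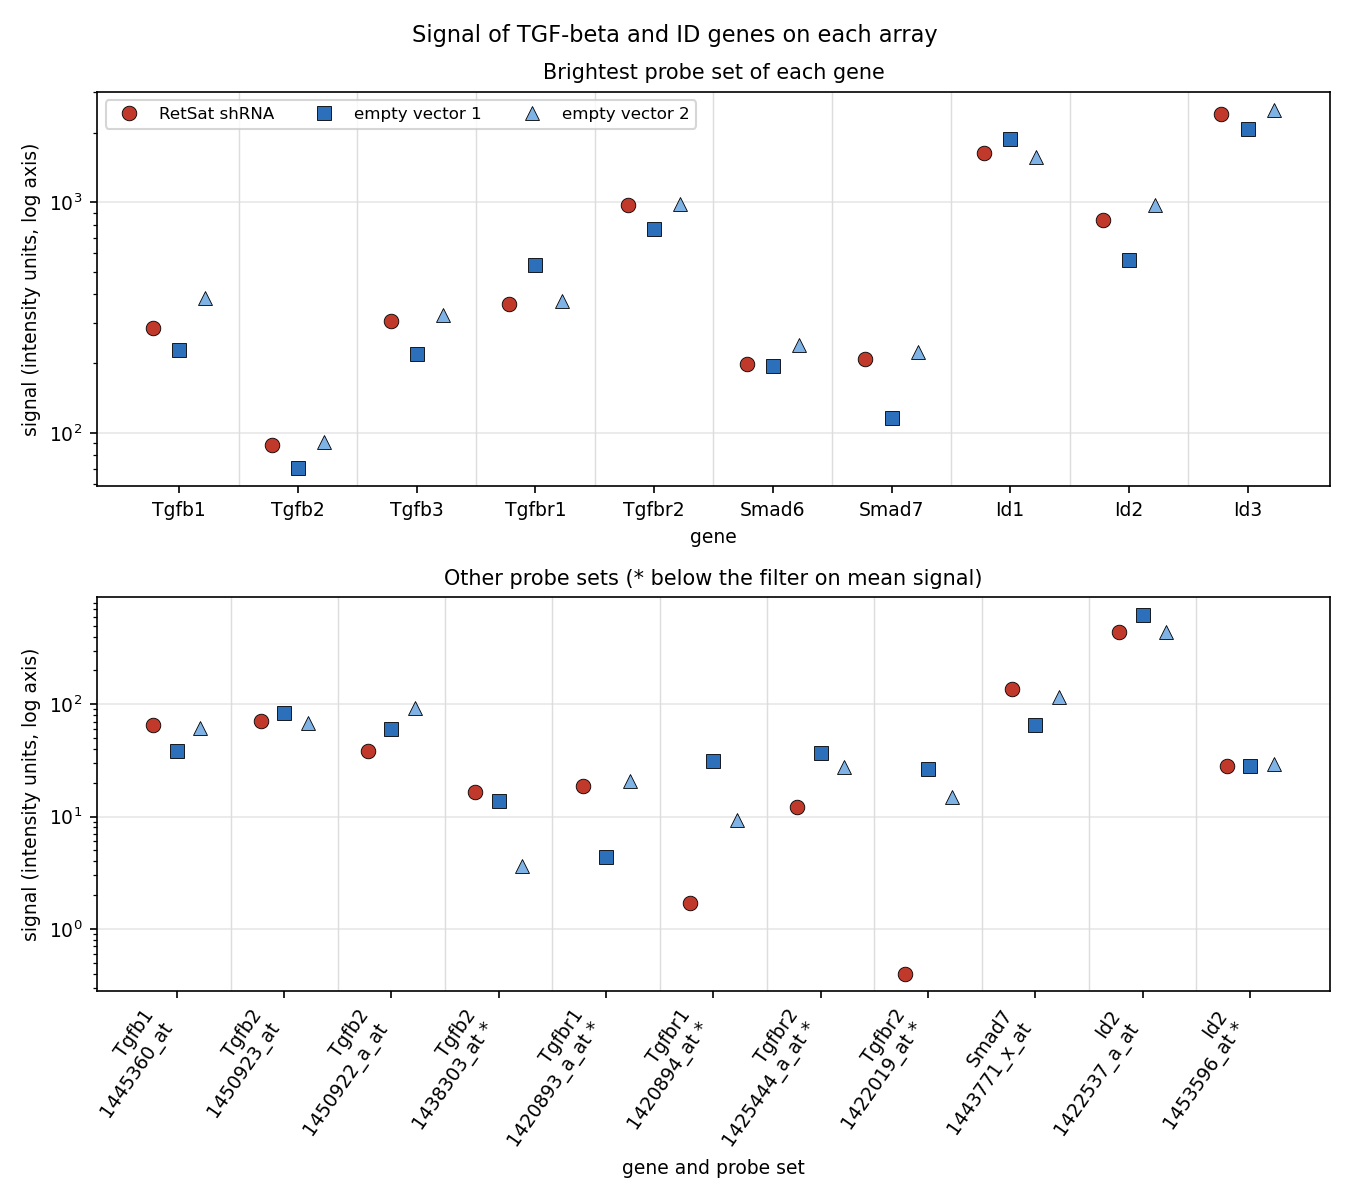
Signal of each probe set (intensity units, log axis) on RetSat shRNA (circles), empty vector 1 (squares) and empty vector 2 (triangles), 1 array each, with the brightest probe set of each gene above and the other probe sets below. In the upper panel the circle lies between the other symbols for 9 of 10 genes, with Tgfbr1 as the exception, and heights are not comparable between genes.

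**Figure D2:**
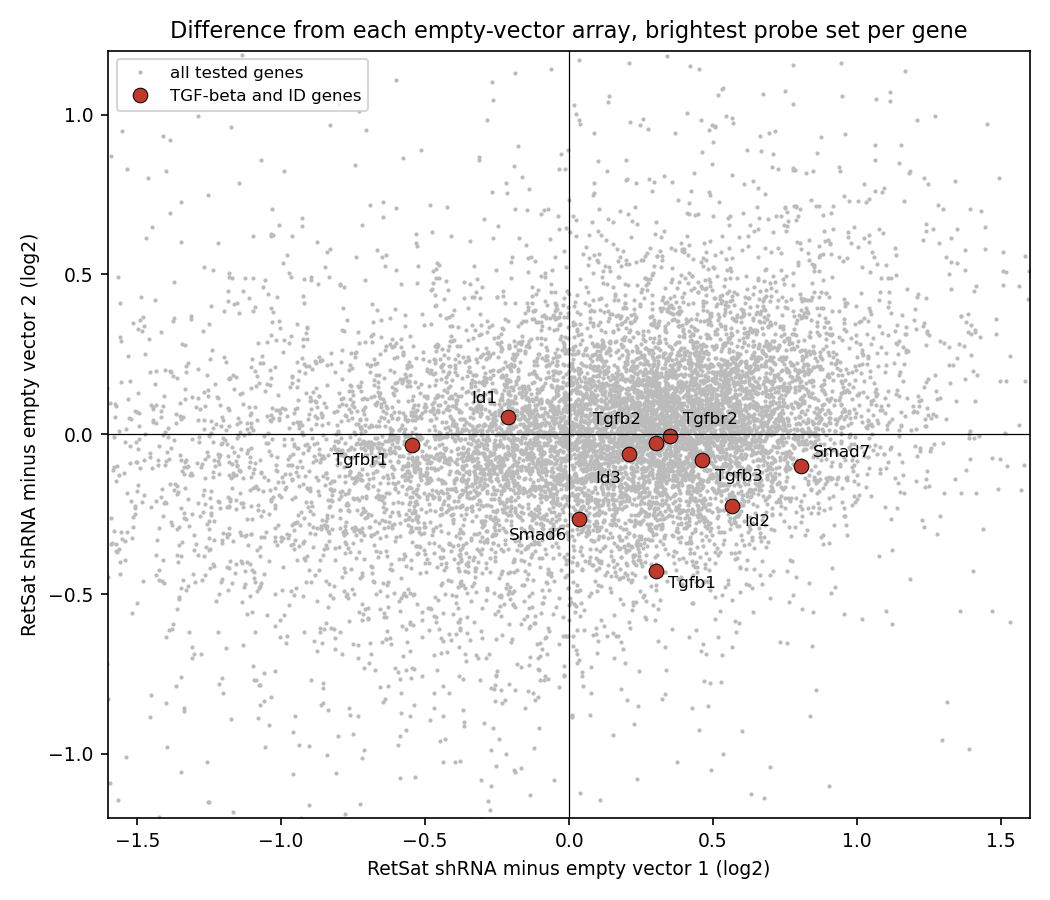
Log2 difference of RetSat shRNA from empty vector 1 (x axis) and from empty vector 2 (y axis) for the 10843 tested genes (grey, 604 of them outside the axes) and the 10 TGF-beta and ID genes (red). The red points spread from -0.54 to 0.81 along the x axis and from -0.43 to 0.05 along the y axis.

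The 3 ligands all had signals above the filter, which is not a detection call. None was outside the range of the empty-vector arrays by its brightest probe set. Tgfb1, the most widely expressed isoform in the body, read 284 on RetSat shRNA, against 228.6 on empty vector 1 and 385.5 on empty vector 2. RetSat shRNA was thus nearer to empty vector 1, and this was the member furthest below empty vector 2 by its brightest probe set (log2 difference -0.43, and 0.30 from empty vector 1). The other Tgfb1 probe set read 65.1, against 38.6 and 60.9, with RetSat shRNA above both, by 0.63 log2 and 0.08 log2. Tgfb3, an isoform known for its part in palate and lung development, read 305.5 on RetSat shRNA, against 219 and 323.6. Only empty vector 1 stood off, and RetSat shRNA was 0.08 log2 below empty vector 2. Tgfb2, an isoform needed for heart and eye development, was dim on every probe set. Its brightest read 89 on RetSat shRNA, against 70.3 and 90.9, a second read 71.1, against 83.9 and 67.6, and in both RetSat shRNA was close to empty vector 2.

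A further Tgfb2 probe set gave the widest difference among the tested member probe sets. It read 38.4 on RetSat shRNA, against 60.5 on empty vector 1 and 93.3 on empty vector 2, which is 49.9% of the empty-vector mean. RetSat shRNA lay below both arrays, by 0.54 log2 and 1.09 log2. In limma its unadjusted p was 0.164 and its adjusted p 0.9999, the lowest unadjusted value of the 15 tested member probe sets. The other 2 tested Tgfb2 probe sets did not share this difference. The last Tgfb2 probe set was under the filter and read 16.6, against 13.8 and 3.6.

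The receptors went opposite ways between the empty-vector arrays. Tgfbr1, the type I receptor kinase also called ALK5, read 362.8 on RetSat shRNA, against 533.9 on empty vector 1 and 371.2 on empty vector 2. It was the only gene of the set below both arrays by its brightest probe set, but the difference from empty vector 2 was 0.03 log2, and the empty-vector arrays themselves were 0.51 log2 apart. Tgfbr2, the type II receptor that binds the ligand first, read 975.8 on RetSat shRNA, against 762.6 and 980. Here RetSat shRNA and empty vector 2 were 0.01 log2 apart, and empty vector 1 was lower. Each receptor had 2 further probe sets below the filter, and they were not tested. For Tgfbr2 these read 12.2, against 36.6 and 27.9, and 0.4, against 26.5 and 14.8. On both the RetSat shRNA signal was the lowest of the 3, unlike the bright probe set, at signals where no detection call is given. For Tgfbr1 they read 18.7, against 4.4 and 20.6, and 1.7, against 31.1 and 9.3, so the dim probe sets of this gene did not share an order.

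Among the inhibitory SMADs, Smad7 had the widest range over the 3 arrays of the 10 brightest probe sets (0.90 log2). SMAD7 blocks the TGF-beta type I receptor and brings ubiquitin ligases to it. Its brightest probe set read 209.6 on RetSat shRNA, against 115.6 on empty vector 1 and 225.1 on empty vector 2, and its other tested probe set read 135.5, against 65.3 and 115.3. Both probe sets had empty vector 1 lowest by a wide margin. They differed in the order of the other 2 arrays, with RetSat shRNA 0.10 log2 below empty vector 2 on the first and 0.22 above it on the second, whose identifier (suffix x) marks probes that can bind other transcripts too. The difference of the second from the empty-vector mean was 0.58 log2 (SE 0.547), with an unadjusted p of 0.324 and an adjusted p of 0.9999 in limma. Smad6, which acts mainly on BMP signals, had 1 probe set that read 199.2 on RetSat shRNA, against 194.1 and 241.3. It was 1 of the 2 genes of the set, with Tgfb1, for which RetSat shRNA lay nearer to empty vector 1 than to empty vector 2.

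The ID genes gave bright signals, and RetSat shRNA lay between the empty-vector arrays on all 4 of their tested probe sets, against 40% of all tested probe sets. Id1 read 1627.4 on RetSat shRNA, against 1884.9 on empty vector 1 and 1568.3 on empty vector 2. By the brightest probe sets it was the 1 member with empty vector 2 lowest, and RetSat shRNA was 0.05 log2 above that array. Id3 read 2407.1 on RetSat shRNA, against 2082.7 and 2510.6, a range of 0.27 log2 over the 3 arrays. Id2 gave 2 bright probe sets that disagreed. The first read 835.2 on RetSat shRNA, against 561.3 on empty vector 1 and 976.5 on empty vector 2, and the second read 443.5, against 621.1 and 441.8. Between the empty-vector arrays the first was 0.79 log2 higher on empty vector 2 and the second 0.48 log2 lower, so that the direction for Id2 depends on the probe set. Against empty vector 2 alone, RetSat shRNA differed by -0.22 and 0.01. The last Id2 probe set was under the filter and level, at 28.3 on RetSat shRNA, against 28 and 29.4.

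**Figure D3:**
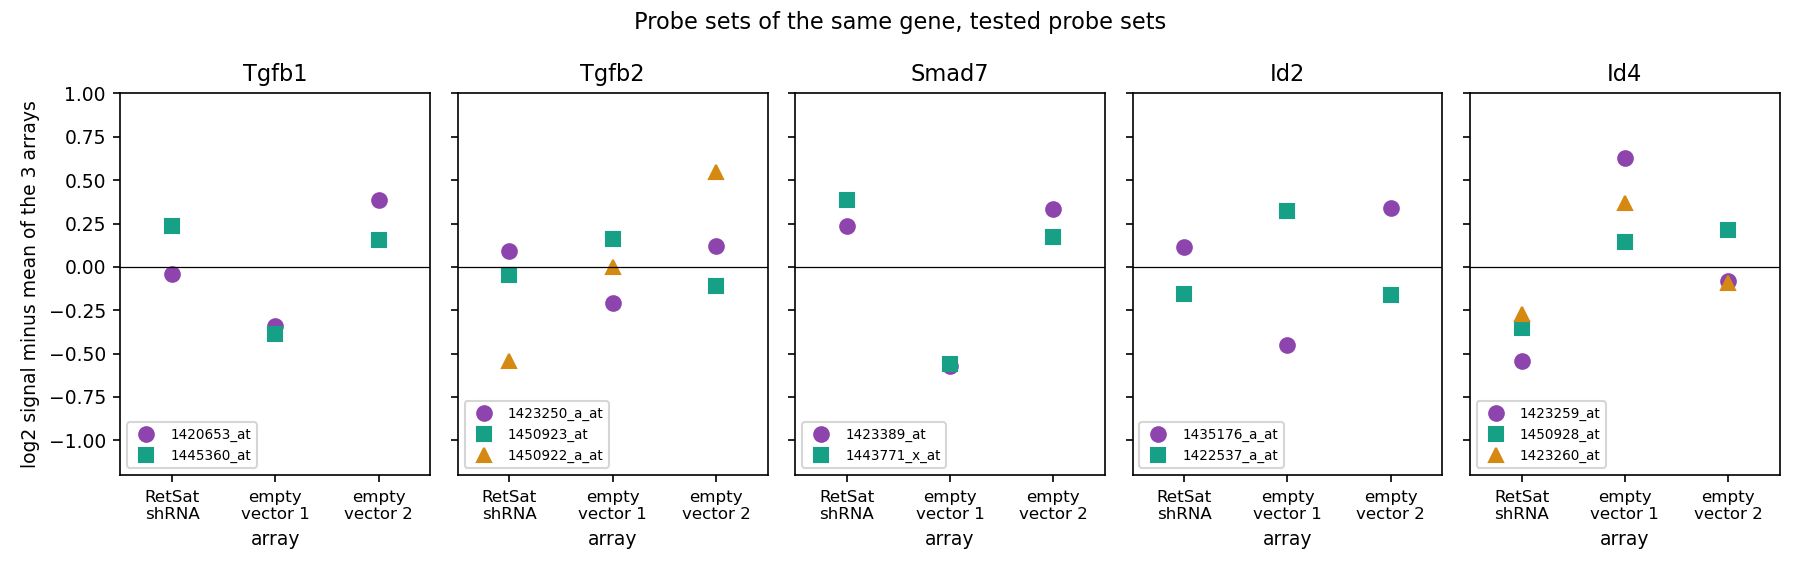
Log2 signal minus its mean over the 3 arrays for each tested probe set of Tgfb1, Tgfb2, Smad7, Id2 and Id4, on RetSat shRNA (left), empty vector 1 (middle) and empty vector 2 (right). The Smad7 probe sets share a low empty vector 1, the Id2 probe sets go opposite ways there (0.79 and -0.48 from empty vector 1 to empty vector 2), and all 3 Id4 probe sets are lowest on RetSat shRNA.

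Id4, the remaining gene of the family and not a member of the set, had a different order. Its brightest probe set read 216.4 on RetSat shRNA, against 500.4 on empty vector 1 and 302.5 on empty vector 2, and the others read 133.2, against 192.3 and 202.3, and 133.6, against 214.1 and 152.5. RetSat shRNA was lowest on all 3 probe sets. The brightest differed by -1.17 log2 from empty vector 1 and -0.46 from empty vector 2, with an unadjusted p of 0.177 and an adjusted p of 0.9999 in limma. The empty-vector arrays were 0.71 log2 apart on this probe set. That Id4 differs in its response from Id1, Id2 and Id3 was not tested.

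The rest of the pathway was read from 8 lists of 91 other genes in all, of which 84 had a single-gene probe set and 61 were bright enough to test. RetSat shRNA was above both empty-vector arrays for 15 of the 61 (24.6%, against 34.4% of all tested genes), below both for 9 (14.8%, against 25.4%) and between them for 37. By the rule of size 0 of the 61 were higher (0.0922% of all tested genes) and 0 lower (0.498%), and in limma 0 passed and 0 had an unadjusted p under 0.05 (0% and 0.618% of all tested genes). Of the untested listed genes under the filter, Ldlrad4 and Hey1 met the rule as higher and none as lower. Ldlrad4, a target gene, read 92.4 on RetSat shRNA, against 17.6 and 5.7, and Hey1, of the bHLH list, read 38.5, against 12.1 and 2.9. Without the filter the rule took 780 of all 34945 probe sets as higher. The median log2 difference of the 61 from the empty-vector mean was 0.05, against 0.07 over all tested genes. After median centring 26 of the 61 lay above both arrays and 6 below, against 45.8% and 17.8% of all tested genes.

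Of the SMAD transducers, 5 were tested, and 1 lay above both arrays and 0 below. Smad4, the partner shared by both branches, read 2355.1 on RetSat shRNA, against 1569.9 and 2041.1, but 2 other probe sets of the gene lay between the empty-vector arrays. Smad3, named after its value was seen, read 1021, against 671.8 and 1206.5, and lay between them, as did Smad1, Smad2 and Smad5. Of 10 other receptors of the family, 3 lay above both arrays and 1 below. The type I activin receptor Acvr1b read 484.2 on RetSat shRNA, against 439.4 and 441.6. The BMP type II receptor Bmpr2 read 614.9, against 1056.9 and 715.2, and lay below both, as did a second tested probe set (25.3, against 72 and 36), while another lay between the arrays (31.5, against 61.5 and 20.5). Endoglin (Eng), a co-receptor best known in endothelium, was dim at 71.8, against 49.5 and 20.8.

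Of 7 other ligands tested, 2 lay above both arrays and 2 below, and the 3 named here were dim. Gdf11 read 24.7 on RetSat shRNA, against 52.9 and 49.6, Gdf2 read 66.8, against 40.7 and 50.2, and Gdf5 read 57.2, against 35.3 and 47. The Gdf11 signals were 2.14-fold and 2.01-fold higher with the empty vector than on RetSat shRNA before the offset. With the offset the difference was -0.85 and -0.78 log2, which misses the rule of size, with an unadjusted p of 0.141 and an adjusted p of 0.9999 in limma. Of 8 tested antagonists, 2 lay above and 1 below. Follistatin-like 3 (Fstl3), which binds activin, read 287 on RetSat shRNA, against 173.1 and 240.9. The BMP antagonist Nbl1 read 608.6, against 298.1 and 558.4, and Fstl1 read 7156.8, against 9633.3 and 7378.7. For both, most of the difference was from empty vector 1.

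Of 8 tested genes of latent TGF-beta storage and activation, 3 lay above both arrays and 1 below. Integrin beta 5 (Itgb5), a partner of the alpha v integrin, read 1938 on RetSat shRNA, against 1204.5 and 1659.1, and its 3 other probe sets were above both arrays too. Those 3 were only 0.12 to 0.14 log2 above empty vector 2, and all but 1 of them carry the suffix x. The latent binding protein Ltbp2 read 538.5, against 434.6 and 477.7. Thrombospondin 1 (Thbs1), an activator of latent TGF-beta, read 4672.9, against 5192.6 and 5021.6, and lay below both. Of 13 intracellular regulators, 2 lay above and 2 below. Zfyve9, the SARA anchor that presents SMADs to the receptor, read 82.1 on RetSat shRNA, against 156.6 and 149.7, a difference of -0.85 and -0.79 log2. Its unadjusted p was 0.138 and its adjusted p 0.9999 in limma. The ubiquitin ligase Smurf2 read 528.2, against 834.8 and 605.2, and lay below both arrays on all 3 of its probe sets, and its relative Smurf1 read 419.7, against 375.5 and 411.8, above both. Another Smurf1 probe set lay between the arrays, at 223.2, against 105.3 and 271.1.

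Of 8 tested target genes of TGF-beta, Smad7 included, 1 lay above both arrays and 1 below. Cdkn1a, which encodes the cell cycle inhibitor p21, read 2228.5 on RetSat shRNA, against 957.4 and 1639.6. It is also a target of p53, and its unadjusted p was 0.180 and its adjusted p 0.9999 in limma. A second Cdkn1a probe set was above both arrays too, at 359.4 on RetSat shRNA, against 110.1 and 211.1. Tgfbi read 211.3, against 243.4 and 216.7, and its 3 other probe sets lay between the empty-vector arrays. Targets with RetSat shRNA between the arrays, chosen after their values were seen, included Ccn2 (connective tissue growth factor) at 514.4, against 389.5 and 609.4, smooth muscle actin Acta2 at 2332.3, against 1488.8 and 2390.7, and Pmepa1 at 518.6, against 270.6 and 536.4. Of the ID family and bHLH partners, 5 were tested. Id4 lay below both arrays and Hes1, a bHLH repressor downstream of Notch, was dim at 47.3, against 46 and 18.9. The E protein genes Tcf3, Tcf4 and Tcf12, again named after their values were seen, lay between the arrays, with differences from empty vector 2 of -0.24, 0.04 and -0.19 log2.

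**Figure D4:**
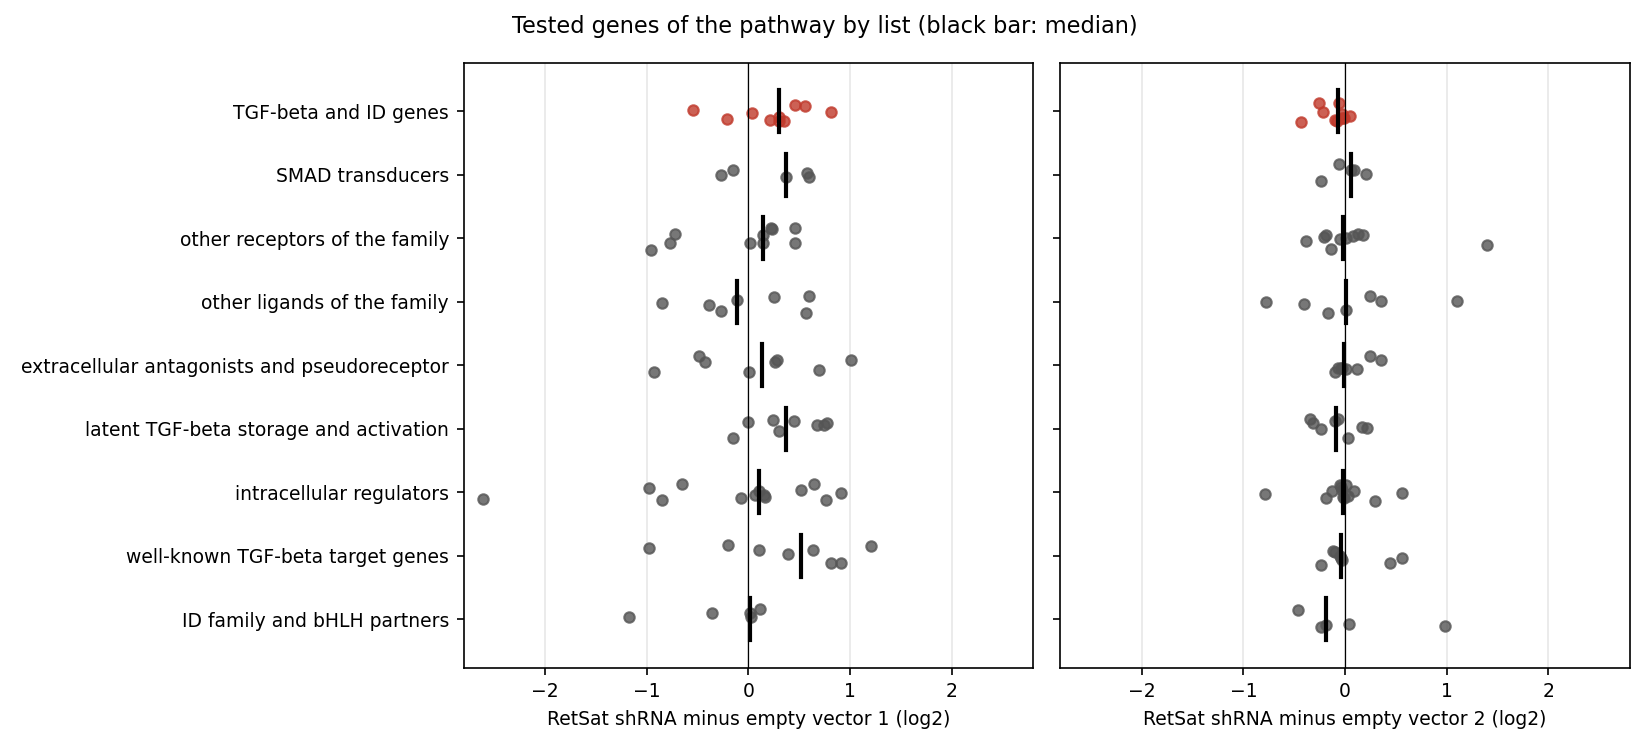
Log2 difference of RetSat shRNA from empty vector 1 (left) and from empty vector 2 (right) for the 10 TGF-beta and ID genes (red) and the tested genes of each pathway list (grey), with black bars at the medians. Points spread more widely in the left panel, and the medians run from -0.11 to 0.52 there and from -0.19 to 0.06 in the right panel.

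Some pathway genes differed 2-fold or more between the empty-vector arrays, 5 of the 61 (8.2%), against 12.7% of all tested genes. They are named here after a look at their values. The deubiquitinase Usp15 read 120.3 on RetSat shRNA, against 784.1 on empty vector 1 and 96.3 on empty vector 2, and the SMAD corepressor Skil read 292.7, against 586.7 and 195.1. The BMP receptor Bmpr1a read 477.3, against 938.9 and 420.5. The latent binding protein Ltbp3 went the opposite way, at 2971.2 on RetSat shRNA, against 1736.3 and 3706.9, and Inhbb was dim at 42.6, against 53.3 and 14.4. For each of these RetSat shRNA lay between the empty-vector arrays.

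The members with the widest range by their brightest probe set were Smad7 and Id2. The genes closest to Smad7 by distance over both log2 differences were Zdhhc9 (0.008), Snhg3 (0.012) and 4930429B21Rik (0.015), and 124 genes lay within 0.1. For Zdhhc9 the signals were 419.1 on RetSat shRNA, against 234.6 and 451.4. The genes closest to Id2 were Gng11 (0.007), Gtpbp6 (0.010) and Cdk9 (0.014), with 138 genes within 0.1. With 3 arrays this likeness covers only 2 differences per gene.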

How the data were processed

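Total RNA of 3 samples was labelled with biotin and measured on single-colour arrays, per the labels. The authors deposited linear intensities per probe set, from 0.1 to 30189.8. Their software and summarisation were not given in the sources used here. No detection calls were used. Gene names came from the platform annotation, looked up by gene ID in GRCm38.p6, which changed 0 symbols. Probe sets with several genes (932), none (9160) or of array controls (64) were left out. Before log2, 10.2 (the 25th percentile of the values) was added as an offset, so fold changes of dim genes are understated. No further normalization was applied. Probe sets were tested at a mean log2 signal no lower than the median of all probe sets (19518 probe sets, 10843 genes). The probe set with the highest mean stood for its gene.

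RetSat shRNA was compared with empty vector in limma 3.58.1 (R 4.3.3, lmFit and eBayes, two-sided, Benjamini-Hochberg over all tested probe sets, threshold 0.05). The procedure was tested on simulated data in which all 3 arrays had 1 spread, taken from RetSat shRNA and empty vector 2. The SD of the log2 differences was 0.383 for that pair and 0.789 between the empty-vector arrays. The simulation thus lacks an array that stands apart and does not check the p-values under these data. The fit has 1 residual degree of freedom, and the single RetSat shRNA array is taken to vary like the controls. The labels name no separate cultures, and p-values cover only array-to-array spread, possibly technical. The rule of size took probe sets with a distance of 2-fold or more from both empty-vector arrays in 1 direction. Named pathway genes were, among tested genes only, those past this rule and, per list, up to 3 with the largest smaller difference among genes above or below both arrays. Ldlrad4 and Hey1, under the filter, were named after their values were seen. Likeness to a member was a Euclidean distance over both log2 differences, for the 2 members with the widest range. The members and lists were chosen with earlier results of these data known. Alternatives were median centring, quantile normalization, offsets of 50 and 1, no filter, a 75th percentile filter, 1 probe set per gene, the mean of a gene's probe sets, a robust variance prior, and leaving out each empty-vector array.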

Additional observations from a re-analysis of the deposited data

How the results depend on the processing

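No paired analysis was possible because the groups share only the number 2 in their titles, and what it stands for on RetSat shRNA is not stated. No member passed limma in any of the settings it was run in. Over all probe sets limma called 0 as reported and 8 (all lower) with the arrays centred on their medians, none of them a member. The cause was not tested. Probe sets at least 2-fold higher than both empty-vector arrays were 29 as reported, 56 centred, 63 after quantile normalization, 5 and 53 with offsets of 50 and 1, 780 without a filter, 1 with the 75th percentile filter and 10 with 1 probe set per gene. Those lower were 182 as reported, 15 with an offset of 50, 950 without a filter, 2 with the stricter filter and 54 with 1 probe set per gene. With 1 empty-vector array left out, 228 to 698 were higher and 295 to 2472 lower, the smaller counts without empty vector 1. Tested member probe sets above both arrays were 2 as reported, 4 centred, 4 after quantile normalization and 0 with the stricter filter, and those below were 2 as reported, 1 centred, 5 without a filter and 1 with the stricter filter. With 1 empty-vector array left out the balance turned, with 5 higher and 10 lower without empty vector 1 and 10 higher and 5 lower without empty vector 2. Pathway genes above both arrays were 15 as reported and 26 centred, and those below were 9 as reported, 15 without a filter and 18 with the mean of a gene's probe sets. Here too the balance turned, with 27 higher and 34 lower without empty vector 1 and 40 higher and 21 lower without empty vector 2. The Retsat difference was -2.54 log2 as reported and -2.08 with an offset of 50, which shrinks differences of dim signals by construction. The members' median difference from the empty-vector mean was 0.11 as reported, -0.07 to 0.30 with 1 array left out and -0.04 with the mean of each gene's probe sets. Of 70 alternative values of single members, 18 had another sign than as reported and 1 moved by more than the spread between the empty-vector arrays, Tgfbr2 at -0.75 with its dim probe sets averaged in, against 0.17 as reported. No detection calls were used, so which dim probe sets stood above background is not known.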
